A study of Danio rerio with 20 samples.

Results

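The arsenite response of larval zebrafish livers was compared between wild-type fish and as3mt mutants, gene by gene, as a difference of differences. All 20 libraries of the series entered this comparison, 5 for each pairing of genotype (labelled wt_tab5 and as3mtmut) and inorganic arsenic (0 and 1 mM). A response is the log2 change with arsenite within a genotype, and the difference of responses is the mutant response minus the wild-type response. A positive value marks a gene whose change with arsenite lay above that of wild type in the mutants, and a negative value one whose change lay below it.

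Inorganic arsenite binds the thiol groups of proteins, damages their folding and depletes glutathione. Arsenite methyltransferase, the product of as3mt, adds methyl groups from S-adenosylmethionine to arsenic in the liver, and the methylated forms are excreted. Cells exposed to arsenite are known to induce chaperones, the proteasome and targets of the transcription factor Nrf2, and a liver under toxic stress loses transcripts of its secreted and metabolic proteins.

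Wild-type larvae were of the TAB5 strain. The mutants came from an incross of F2 fish that carried 2 copies of as3mt lacking 8 bp of exon 3, a CRISPR allele with an early stop codon, on the ABNYU wild-type background. Exposed larvae of each genotype received 1 mM sodium arsenite at 96 h after fertilization, unexposed larvae received none, and livers were dissected at about 119 h, at 5 days of age. The mutation affects the whole body, and the strain background differs together with the genotype, so the effect of as3mt and that of the background cannot be told apart. Each library holds the pooled livers of 12 to 15 larvae, and whether the pools of a group came from separate spawnings is not given, so p-values measure the spread between these pools.

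Library totals ran from 25406597 to 42047561 counts, and 16389 of 32105 gene identifiers passed a filter on low counts. The first principal component of the libraries held 54.67% of the variance and ran with exposure. Exposed wild-type libraries lay between 29.6 and 74.7 on it and exposed mutant libraries between 83.4 and 113.5, while the unexposed libraries lay between -87.6 and -75.1 (wild type) and between -81.7 and -69.1 (mutants). Replicate 5 of the exposed wild type was the lowest of the exposed libraries. The summed level of 12 hepatocyte markers was 144000 to 167000 CPM (counts scaled to a common library size) in unexposed wild type and 122000 to 152000 in unexposed mutants. With arsenite it was 37200 to 73300 CPM in wild type and 22600 to 35400 in mutants, which do not overlap. In pooled tissue, fewer cells of a type and less RNA per cell cannot be told apart.

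The responses differed between genotypes at an adjusted p under 0.05 (edgeR quasi-likelihood test) in 652 of the 16389 genes tested (3.98%), 214 with a higher response in mutants (1.31%) and 438 with a lower one (2.67%). The median difference over all tested genes was -0.05 on the log2 scale. Among the genes called higher the median was 0.74, from 0.37 to 8.68, and among those called lower it was -1.31, from -6.79 to -0.45. A difference of at least 1 on the log2 scale, in either direction, was found in 73 of the higher and 316 of the lower calls. The count was sensitive to single libraries: it was 383 without replicate 3 of the exposed mutants, 405 without their replicate 4, and 408 without replicate 2 of the exposed wild type. With library sizes taken from total counts the median over all tested genes shifted by 0.112, and 53.9% of 802 calls were higher, against 32.8% here. Of the 652 genes, 336 kept their call in every fit that left out 1 library, 97 higher and 239 lower. For reading the lists below, 2992 of the 16389 tested genes had an unadjusted p under 0.05. DESeq2 called 1123 of all tested genes (500 higher and 623 lower) and limma-voom 608 (189 and 419).

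By their estimates, most calls were changes that went the same way in both genotypes and further in the mutants. This pattern held for 552 of the 652 genes (84.7%), against 58.2% of all tested genes. A greater fall in mutants was the most frequent form, with 385 genes (59.0%) and median responses of -1.43 in wild type and -2.79 in mutants. A greater rise followed with 167 genes (25.6%), with median responses of 0.78 and 1.6. This order depends on the scaling. With library sizes taken from total counts it was reversed, at 405 greater rises and 286 greater falls. Both responses were themselves called in 328 of the greater falls and 137 of the greater rises. A smaller change in the same direction was called in 14 genes (2.1%, against 28.3% of all tested genes). Estimates of opposite sign were found for 86 genes (13.2%, against 13.5%), and in 16 of these both responses were themselves called. As the difference is made of the same responses, these shares describe the calls and carry no test.

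**Figure D1:**
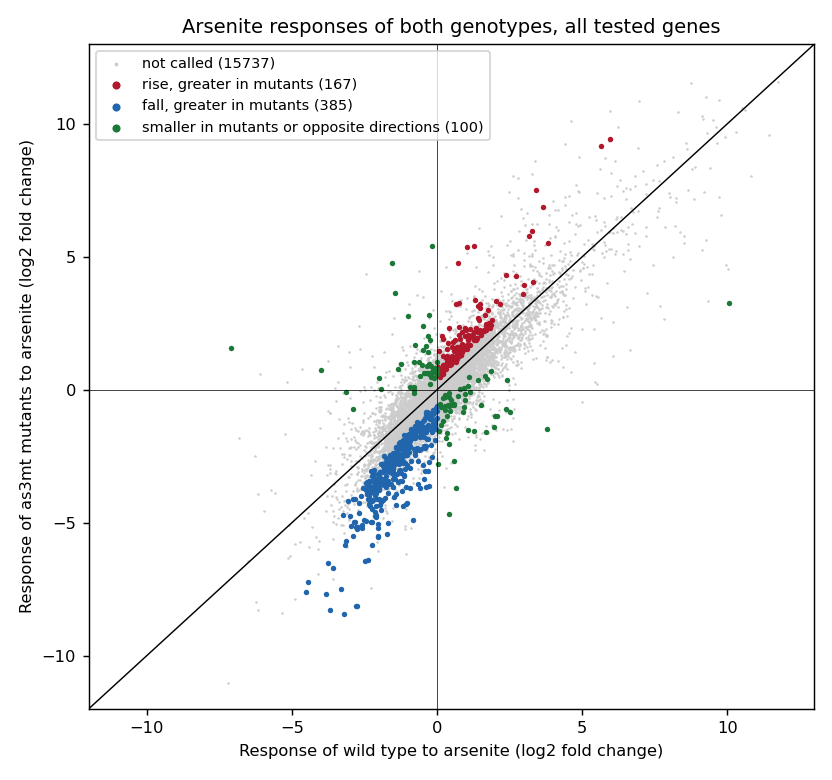
Response to arsenite (log2 fold change) of wild type on the x axis and of as3mt mutants on the y axis, 1 point per tested gene, with the line of equal responses. The 385 greater falls lie below the line at the lower left and the 167 greater rises above it at the upper right, while the 100 other calls lie nearer the axes or across them.

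The same 652 genes were sorted by the condition in which a genotype difference was called. In 417 of them (64.0%) it was called with arsenite and not without it, with mutants lower in 320 and higher in 97. In 136 genes (20.9%) it was called without arsenite and not with it. A missed call does not mean equal levels. GAMT and CBR1 are among the 417 with an edgeR adjusted p of 0.053 and 0.0542 without arsenite, where their genotypes did not overlap. A genotype difference in both conditions was called in 53 genes with the same sign and in 31 with opposite signs, and in 15 genes in neither condition. The same categories were not counted over all tested genes, so these shares have no background beside them. Exposed libraries of the genotypes did not overlap in 400 of the 652 genes (61.3%), against 15.4% of all tested genes. Unexposed libraries did not overlap in 183 of the 652, a count that has no share of all tested genes beside it. For reference, genotype differences over all tested genes were called in 13.8% without arsenite and in 20.6% with it. The difference of responses is also the exposed genotype difference minus the unexposed one. A higher share of separated exposed genotypes among the calls follows in part from how they were chosen. These shares describe the calls and carry no test.

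**Figure D2:**
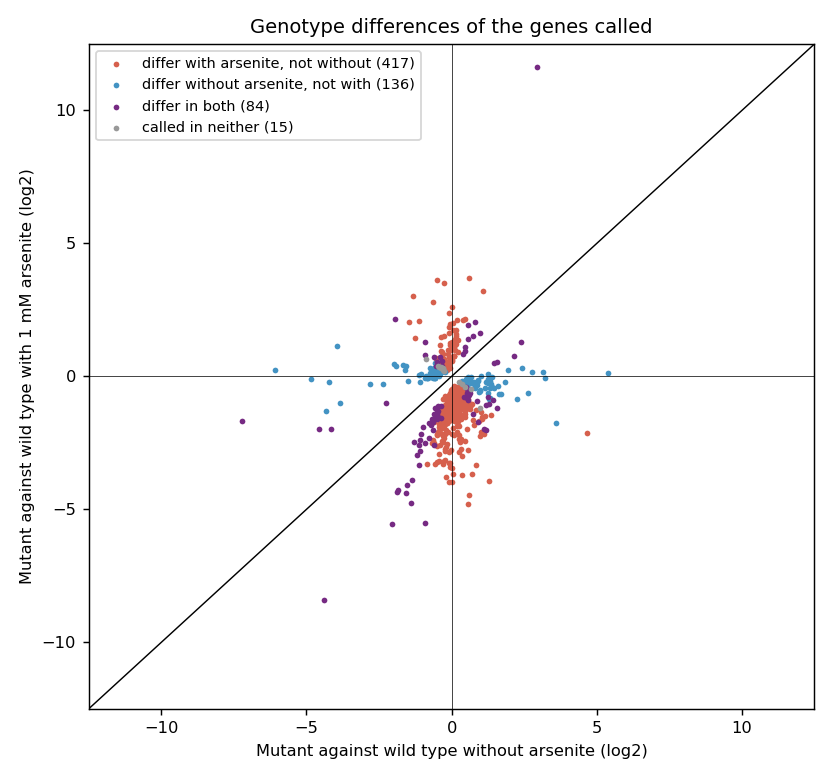
Difference between mutants and wild type (log2) without arsenite on the x axis and with 1 mM arsenite on the y axis for the 652 genes whose responses differed, coloured by the condition in which a genotype difference was called. The 417 genes called with arsenite alone form a vertical band near 0 on the x axis, mostly below 0 on the y axis, and the 136 called without it alone form a horizontal band.

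Genes of arsenic handling include the mutated one. The targeted transcript, AS3MT in the gene name table, stood at 120, 134, 121, 119 and 131 CPM in the unexposed wild-type libraries and at 31.5, 73.6, 39.7, 29.8 and 55.0 in the exposed ones. Mutant libraries held 80.9, 61.8, 81.1, 63.8 and 75.7 CPM unexposed and 18.7, 11.9, 10.2, 8.62 and 16.2 exposed. All exposed libraries were lower than the unexposed ones of their genotype, and mutants lay below wild type in each condition with no overlap. The difference of responses, -1.03 ± 0.31 (SE) on the log2 scale, was not called (edgeR adjusted p = 0.0679, with a range of 0.028 to 0.13 over other fits). A deletion of 8 bp leaves most of the transcript countable, so these counts do not check the genotype.

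Of the 30 tested members of the list of arsenic methylation and transport, 2 were called lower (6.7%, against 2.67% of all tested genes) and none higher (at an unadjusted p under 0.05 these counts were 8 and 2, and by DESeq2 5 and 1), and the median difference was -0.32. The water and glycerol channel aqp9b, whose mammalian relative carries arsenite into hepatocytes, fell further in mutants. It was 137, 200, 149, 169 and 214 CPM in unexposed and 28.7, 44.3, 33.7, 24.3 and 47.0 in exposed wild type, against 179, 241, 252, 233 and 285 in unexposed and 21.1, 15.1, 16.0, 12.1 and 19.1 in exposed mutants. The unexposed genotypes overlapped and the exposed ones did not. The fall was 4.88-fold in wild type and 14.3-fold in mutants, a difference of -1.55 ± 0.26 on the log2 scale (edgeR adjusted p = 0.00256). MAT2A (ENSDARG00000040334), which makes the methyl donor S-adenosylmethionine and shares its symbol with another identifier, differed by -0.91 ± 0.23 (edgeR adjusted p = 0.0308), a call kept in 12 of the 20 fits that left out 1 library. The related mat2al went the other way, at 11.4 to 30.7 CPM in exposed wild type and 37.2 to 95.8 in exposed mutants, a difference of 1.39 ± 0.33 (edgeR adjusted p = 0.0211).

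The DNA damage response halts the cell cycle or starts cell death after damage. mdm2, a ubiquitin ligase that is induced in this response and limits it, was 14.1, 13.2, 14.4, 16.9 and 17.0 CPM in unexposed wild type and 42.8, 27.4, 43.0, 52.8 and 42.3 in exposed wild type. The mutant libraries held 13, 11.8, 13, 10.8 and 14.1 CPM without arsenite and 100, 91.1, 145, 119 and 134 with it. Unexposed genotypes overlapped, and each exposed mutant library was above each exposed wild-type library. The rise was 2.76-fold in wild type and 9.42-fold in mutants, a difference of 1.77 ± 0.21 on the log2 scale (edgeR adjusted p = 0.000162).

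Among the 75 tested members of the list of DNA damage response genes, 4 were called higher (5.3%, against 1.31% of all tested genes) and 1 lower (1.3%, against 2.67%). DESeq2 called 8 higher and 2 lower, and limma-voom 7 and 1. At an unadjusted p under 0.05 the list was evenly split, with 10 higher and 10 lower. Estimates were above 0 in 31 members and below 0 in 44. Beside mdm2, the higher calls included BAX, which permeabilizes mitochondria in cell death (0.71 ± 0.19, edgeR adjusted p = 0.037), and rps27l, a relative of a ribosomal protein (0.98 ± 0.27, edgeR adjusted p = 0.0443). The lower call was rad9a, a subunit of the DNA damage checkpoint clamp (-2.06 ± 0.47), at no more than 2.60 CPM in any library. The median difference of the list was -0.13, against -0.05 over all tested genes, and over the fits without 1 library 2 to 6 members were called higher. The cell cycle inhibitor cdkn1a, named here after its values were seen, had a response of -0.06 in wild type and 0.93 in mutants, and its difference missed the threshold (edgeR adjusted p = 0.174).

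Other large higher differences belonged to genes of varied roles. nupr1a, the zebrafish relative of a chromatin protein induced by many stresses, was 16.6, 12.4, 14.1, 15.0 and 16.4 CPM in unexposed and 11.3, 15.4, 17.5, 17.6 and 22.4 in exposed wild type. In mutants it was 13.2, 10.8, 8.94, 11.1 and 14.0 CPM without arsenite and 40.8, 37.4, 50.8, 48.3 and 57.5 with it. Only the exposed mutants stood apart from the other groups. The wild-type response was 0.18 ± 0.16 and the mutant response 2.02 ± 0.17, a difference of 1.84 ± 0.23 (edgeR adjusted p = 0.000162). RNF14 (ENSDARG00000078683), a ubiquitin ligase whose symbol several identifiers share, was 16.4 to 39.5 CPM in exposed wild type and 69.9 to 107 in exposed mutants, after at most 7.95 in any unexposed library (difference 1.93 ± 0.38, edgeR adjusted p = 0.00679). PARP3, an enzyme of DNA break repair, differed by 1.28 ± 0.29 (edgeR adjusted p = 0.019), GTPBP1 (ENSDARG00000042900), a GTPase that shares its symbol, by 1.25 ± 0.25 (edgeR adjusted p = 0.00708), and PLA2G12A, a phospholipase, by 1.38 ± 0.17 (edgeR adjusted p = 0.000162). In each of these the exposed genotypes did not overlap, and the 3 rose in mutants by 2.26, 1.87 and 1.76 on the log2 scale. PLA2G12A was also higher in unexposed mutants with no overlap (25.6 to 38.5 against 21.5 to 24.1 CPM).

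**Figure D3:**
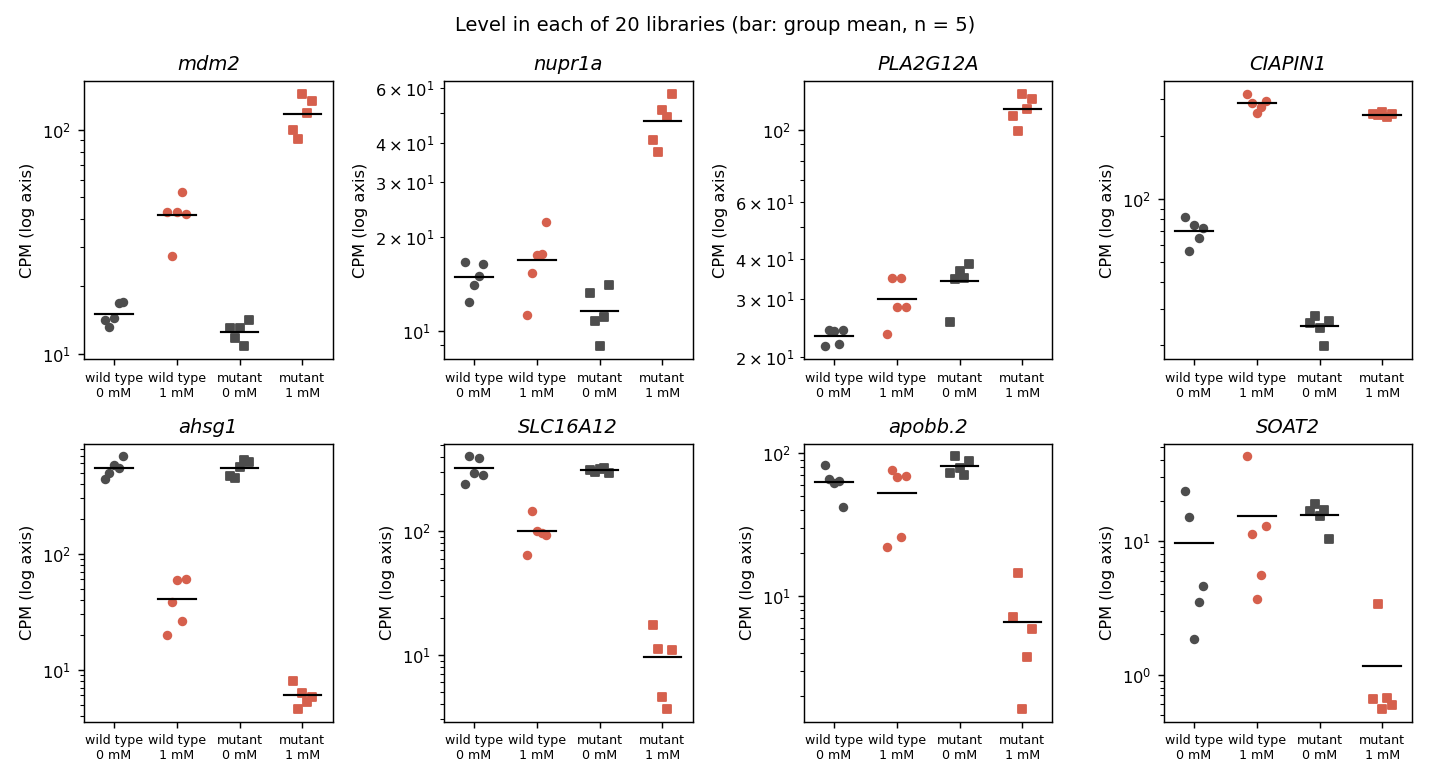
CPM on a log axis in each of the 20 libraries for 8 genes, with 4 groups per panel and a bar at each group mean (n = 5). For mdm2, nupr1a and PLA2G12A the exposed mutants lie above all other libraries, for ahsg1 and SLC16A12 below all others, and for CIAPIN1 the exposed genotypes overlap while the unexposed do not.

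CIAPIN1, a factor of cytosolic iron-sulfur cluster assembly, had the smallest adjusted p and reached its difference another way. It stood at 81.7, 56.2, 75.3, 65.1 and 72.4 CPM in unexposed wild type and at 25.6, 27.7, 24.2, 19.8 and 26.1 in unexposed mutants. With arsenite it was 318, 286, 256, 276 and 293 CPM in wild type and 253, 251, 259, 245 and 253 in mutants. Mutants started lower with no overlap and ended at levels that overlap those of wild type. The rise was 4.07-fold in wild type and 10.2-fold in mutants, a difference of 1.33 ± 0.14 (edgeR adjusted p = 9.69e-05). VPS37A, a subunit of the ESCRT-I sorting complex, crossed over: mutants were lower without arsenite (10.8 to 16.1 against 17.7 to 20.2 CPM) and higher with it (41.8 to 63.5 against 25.9 to 38.5 CPM). Its difference was 1.32 ± 0.19 (edgeR adjusted p = 0.000614).

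The proteasome, which degrades ubiquitinated proteins, had the highest share of higher calls among the 43 lists of pathways and complexes. All 58 matched members passed the filter, 15 were called higher (25.9%, against 1.31% of all tested genes) and none lower, and DESeq2 and limma-voom also called none lower (28 and 13 higher). In wild type 56 of the 58 rose with arsenite (28.7% of all tested genes did), in mutants 55 (31.5%), and none fell in either genotype. Median responses were 1.5 and 2.02, and the difference was above 0 in 50 of the 58, with a median of 0.46. The sum over the list was 2770 to 3680 CPM in unexposed wild type and 2310 to 2700 in unexposed mutants, which do not overlap. With arsenite it was 6940 to 8630 CPM in wild type and 8400 to 9740 in mutants, which overlap. Lower unexposed levels in mutants thus enter the difference of this list. Between 8 and 19 members were called when single libraries were left out, and 8 of the 15 were kept in all 20 of those fits.

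Called members came from the base and lid of the regulatory particle (PSMC1, PSMC2, PSMC3, PSMC4, PSMC5, PSMD1, PSMD2, PSMD4, psmd4b, PSMD8), the core (PSMA2, PSMA5), assembly chaperones (PSMD5, PSMD10) and the bound deubiquitinase USP14. PSMD10 was 5.84, 5.67, 5.27, 5.49 and 3.93 CPM in unexposed wild type and 3.55, 3.17, 4.14, 3.39 and 4.01 in unexposed mutants, and with arsenite 20.1, 24.3, 26.1, 28.9 and 17.6 against 30.7, 39.1, 35.7, 36.8 and 28.7. The genotypes overlapped in each condition, with mutants mostly below wild type before exposure and mostly above it after. Its difference was 1.06 ± 0.20 (edgeR adjusted p = 0.00484). PSMA5 differed by 0.71 ± 0.15 (edgeR adjusted p = 0.00973), at 149 to 186 CPM in exposed wild type and 205 to 229 in exposed mutants, which do not overlap. PSMD8 (0.74 ± 0.14, edgeR adjusted p = 0.00527) was lower in unexposed mutants, at 26.0 to 35.5 against 42.4 to 54.7 CPM in wild type. With arsenite its genotypes overlapped, at 122 to 142 CPM in mutants and 119 to 149 in wild type. PSME2, of an alternative activator, rose by 3.28 in wild type and 2.31 in mutants, and this difference was not called (edgeR adjusted p = 0.608).

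Nucleolar factors of ribosome assembly followed the proteasome at a smaller size. Of 104 tested members, 9 were called higher (8.7%, against 1.31% of all tested genes) and none lower (16 and 10 higher and none lower by DESeq2 and limma-voom). The difference was above 0 in 96, with a median of 0.27, against -0.05 over all tested genes. The sums over the list overlapped between genotypes in each condition (with arsenite 5200 to 6240 CPM in wild type and 6070 to 6850 in mutants). RRN3, which recruits RNA polymerase I to ribosomal DNA, was 19.1, 23.5, 21.1, 24.1 and 24.2 CPM in unexposed and 33.4, 27.7, 36.0, 43.4 and 38.3 in exposed wild type. In mutants it was 16.4, 21.8, 20.9, 26.1 and 19.9 CPM without arsenite and 55.1, 49.5, 67.9, 63.3 and 61.3 with it. The exposed genotypes did not overlap, and the difference was 0.82 ± 0.18 (edgeR adjusted p = 0.0152). RRP12, a nuclear export factor for ribosomal subunits, differed by 0.62 ± 0.13 (edgeR adjusted p = 0.0128) and BMS1, a GTPase of the small subunit, by 0.69 ± 0.16 (edgeR adjusted p = 0.0164). For BMS1 the genotype difference was called without arsenite (-0.44, edgeR adjusted p = 0.0122) and not with it (0.26, edgeR adjusted p = 0.103). Between 4 and 11 members were called over the fits without 1 library. Cytosolic ribosomal proteins had no call among 80 tested members by edgeR, DESeq2 or limma-voom (1 at an unadjusted p under 0.05), with a median difference of -0.01 that turned positive under both other scalings (0.11 with total counts and 0.03 with DESeq2 size factors). All 9 tested subunits of the CCT chaperonin, which folds actin and tubulin, had estimates above 0 (median 0.42), and by edgeR only CCT6B was called (0.47 ± 0.12, edgeR adjusted p = 0.0377), in 7 of the 20 fits without 1 library. DESeq2 called 3 of them and limma-voom 1, all higher, and 8 had an unadjusted p under 0.05.

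**Figure D4:**
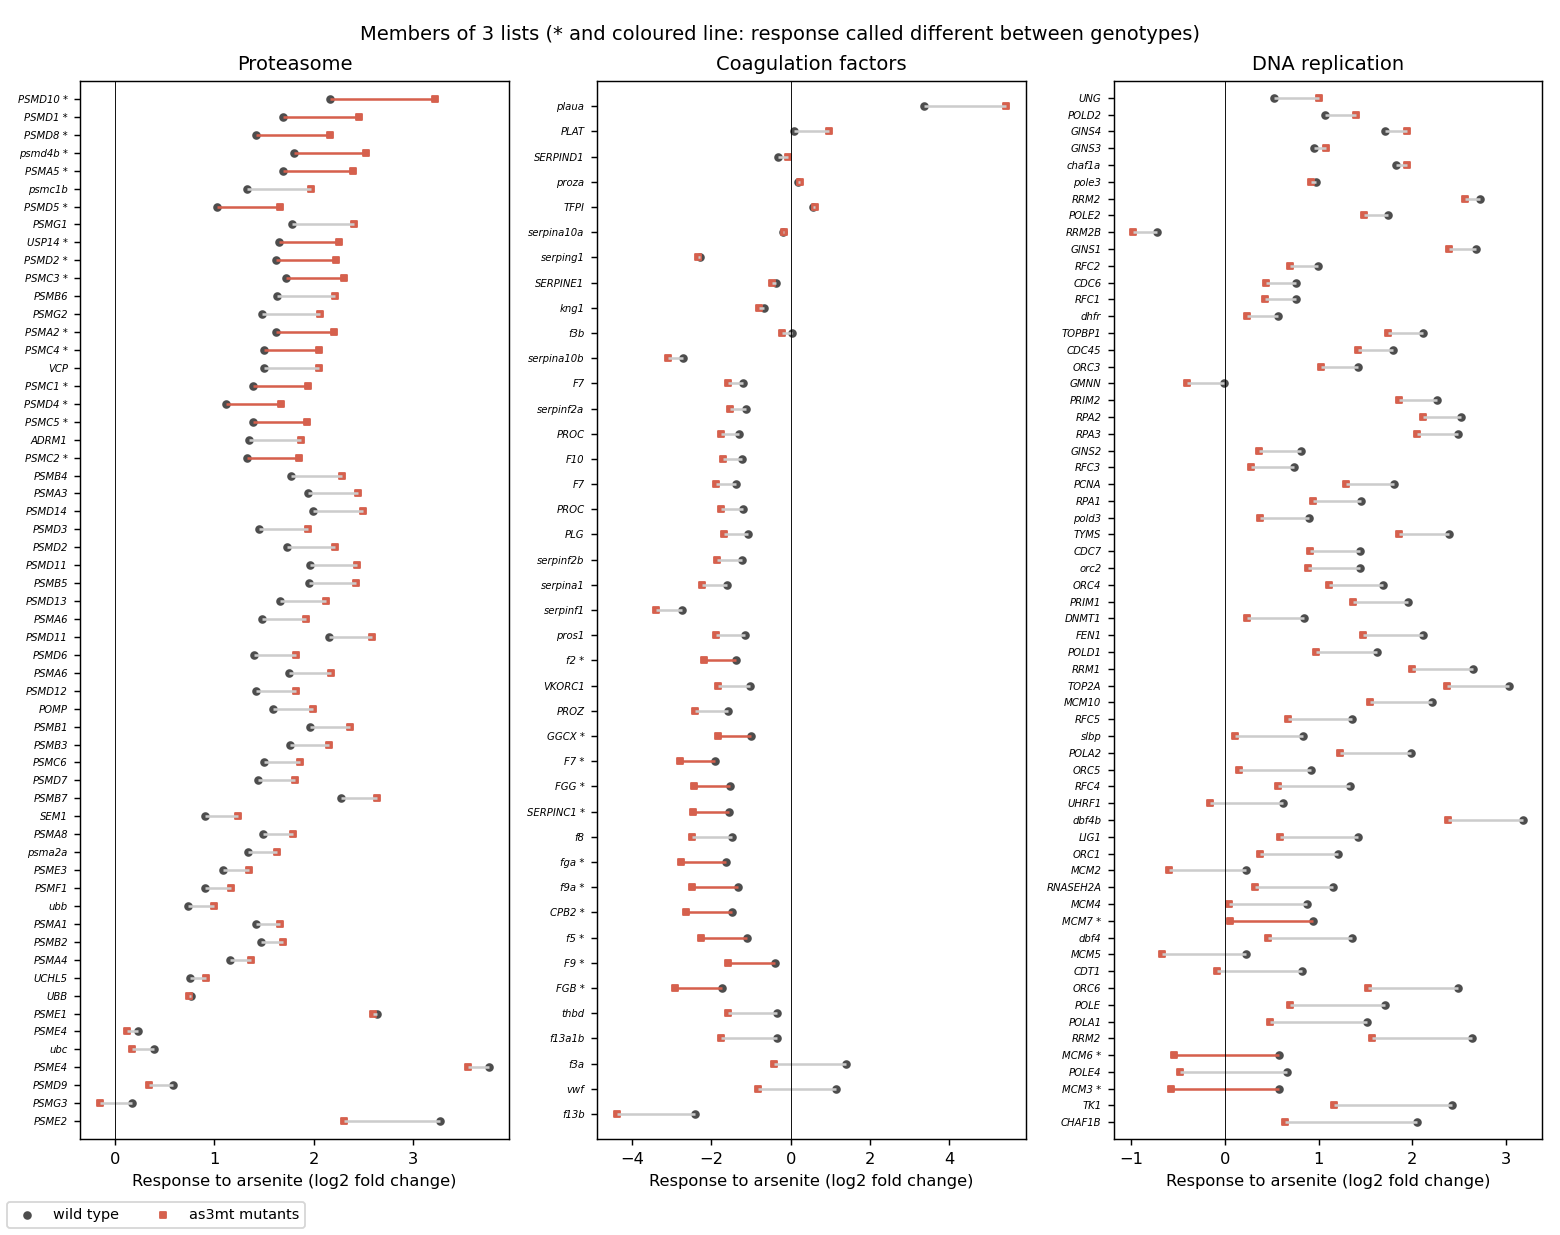
Response to arsenite (log2 fold change) of each tested member of the proteasome, coagulation and DNA replication lists, with circles for wild type, squares for mutants and a coloured line and asterisk where the difference was called. Proteasome squares lie mostly to the right of their circles (50 of 58), and coagulation (35 of 41) and replication squares (57 of 62) mostly to the left.

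Genes of glutathione and of the Nrf2 response were called in both directions. Of 82 tested members 3 were called higher (3.7%, against 1.31% of all tested genes) and 2 lower (2.4%, against 2.67%), and the median difference was 0.15. The split depended on the test, with 10 higher and 3 lower by DESeq2, 3 and 2 by limma-voom, and 19 and 5 at an unadjusted p under 0.05. Without 1 library 2 to 8 members were called higher. gstp1.2, a glutathione transferase, was 549, 650, 673, 559 and 574 CPM in unexposed and 4890, 4050, 4350, 5480 and 5350 in exposed wild type. Its mutant levels were 475, 440, 551, 468 and 432 CPM without arsenite and 7360, 5910, 7980, 7050 and 7990 with it. The exposed genotypes did not overlap, and the rise was 8.03-fold in wild type and 15.3-fold in mutants (difference 0.93 ± 0.15, edgeR adjusted p = 0.00198). PGD, an NADPH source of the pentose phosphate pathway, differed by 0.74 ± 0.19 (edgeR adjusted p = 0.0357).

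The lower calls of that list were a pair of enzymes that fell in both genotypes. CBR1, which reduces reactive carbonyls, was 35.2, 39.8, 39.1, 42.3 and 29.1 CPM in unexposed and 15.9, 22.9, 23.8, 22.5 and 23.8 in exposed wild type, against 42.4, 53.6, 43.8, 51.2 and 55.4 in unexposed and 11.2, 7.12, 8.48, 7.92 and 10.3 in exposed mutants. Mutant libraries lay above wild type before exposure (narrowly, at 42.4 against 42.3 CPM) and below it after, and the difference was -1.69 ± 0.20 (edgeR adjusted p = 0.000162). gpx4a, the glutathione peroxidase of membrane lipids, differed by -1.601 ± 0.303 (edgeR adjusted p = 0.00527). Heat shock genes had 1 call each way among 79 tested members (1.3% each, against 1.31% higher and 2.67% lower over all tested genes), with a median difference of 0.14. DESeq2 called 6 higher and 1 lower, limma-voom 1 and 0, and an unadjusted p under 0.05 was reached by 15 and 2. The inducible chaperone HSP90AA1 rose by 9.27 in wild type and 10.998 in mutants, and its difference of 1.73 ± 0.65 missed the threshold (edgeR adjusted p = 0.148). BAG3, a cochaperone of heat shock proteins, was called lower (-1.58 ± 0.44, edgeR adjusted p = 0.0453), in 5 of the 20 fits without 1 library.

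Lists of secreted liver proteins, 1 of which also holds other hepatocyte genes, had the highest shares of lower calls among the lists of pathways and complexes. Coagulation factors had 11 lower calls and no higher one among 41 tested members (26.8%, against 2.67% of all tested genes). Apolipoproteins had 8 of 37 and no higher one, and the list of plasma carriers and hepatocyte genes 9 of 42 and no higher one. By DESeq2 the lower calls in these lists were 12, 13 and 10, with 2 higher calls among apolipoproteins and none in the others. Complement had 6 lower and 2 higher calls among 38. Median differences were -0.66, -0.74, -0.64 and -0.59, and all kept their sign under the other scalings. Of the coagulation list, 30 members fell in wild type and 31 in mutants (24.6% and 30.3% of all tested genes did), with median responses of -1.20 and -1.83. Its sum was 37400 to 44000 CPM in unexposed wild type and 33400 to 37000 in unexposed mutants, which do not overlap. With arsenite it was 12800 to 19800 CPM in wild type and 6620 to 11000 in mutants, which do not overlap either. Over the fits without 1 library 7 to 15 coagulation factors were called. All 11 tested hepatocyte markers, whose sums are given above, are also members of these lists, so the sums are no separate measurement of the cell makeup, and 5 of the 11 were called lower and none higher. The part of the cell makeup in these falls was not tested.

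ahsg1, the carrier fetuin A that the liver secretes, was 441, 497, 585, 548 and 689 CPM in unexposed and 20.0, 38.7, 59, 26.5 and 60.6 in exposed wild type. Mutants held 468, 449, 555, 637 and 615 CPM unexposed and 7.98, 4.58, 6.34, 5.24 and 5.86 exposed. Without arsenite the genotypes overlapped, and with it they did not. The fall was 13.5-fold in wild type and 90.9-fold in mutants, a difference of -2.76 ± 0.34 (edgeR adjusted p = 0.000162). F9, a clotting protease, was 249, 275, 251, 226 and 253 CPM in unexposed and 224, 232, 182, 163 and 158 in exposed wild type, against 200, 201, 190, 169 and 208 in unexposed and 59.8, 64.2, 64.0, 77.0 and 57.0 in exposed mutants. Its fall was small in wild type (-0.39 ± 0.11) and larger in mutants (-1.59 ± 0.12), with a difference of -1.20 ± 0.16 (edgeR adjusted p = 0.000322).

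The 3 chains of fibrinogen, the clot protein, were all called lower, at -0.91 ± 0.18 (FGG, edgeR adjusted p = 0.00726), -1.13 (fga) and -1.21 (FGB). apobb.2, an apolipoprotein B that carries lipid out of the liver, was 83.1, 65.4, 61.7, 63.9 and 42.1 CPM in unexposed and 22.1, 76.4, 67.6, 25.9 and 68.9 in exposed wild type. In mutants it was 72.7, 94.8, 78.2, 70.7 and 88.3 CPM without arsenite and 7.18, 14.5, 1.62, 3.77 and 5.90 with it. The exposed wild-type libraries were split, with replicates 1 and 4 low, and all exposed mutants lay below them. Its difference was -3.34 ± 0.58 (edgeR adjusted p = 0.00302). Smaller lipoprotein genes were called as well, with apoc2, the cofactor of lipoprotein lipase, at -1.75 ± 0.29 (edgeR adjusted p = 0.00237) and apom at -1.34 ± 0.24 (edgeR adjusted p = 0.00351). The 2 higher complement calls were c1qa and c3a.4. c1qa, which is also a macrophage marker, was at or under 1.53 CPM in every library, and its call (3.77 ± 0.94, edgeR adjusted p = 0.0275) was lost without replicate 4 (edgeR adjusted p = 0.0594) or replicate 5 (0.0569) of the unexposed wild type.

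**Figure D5:**
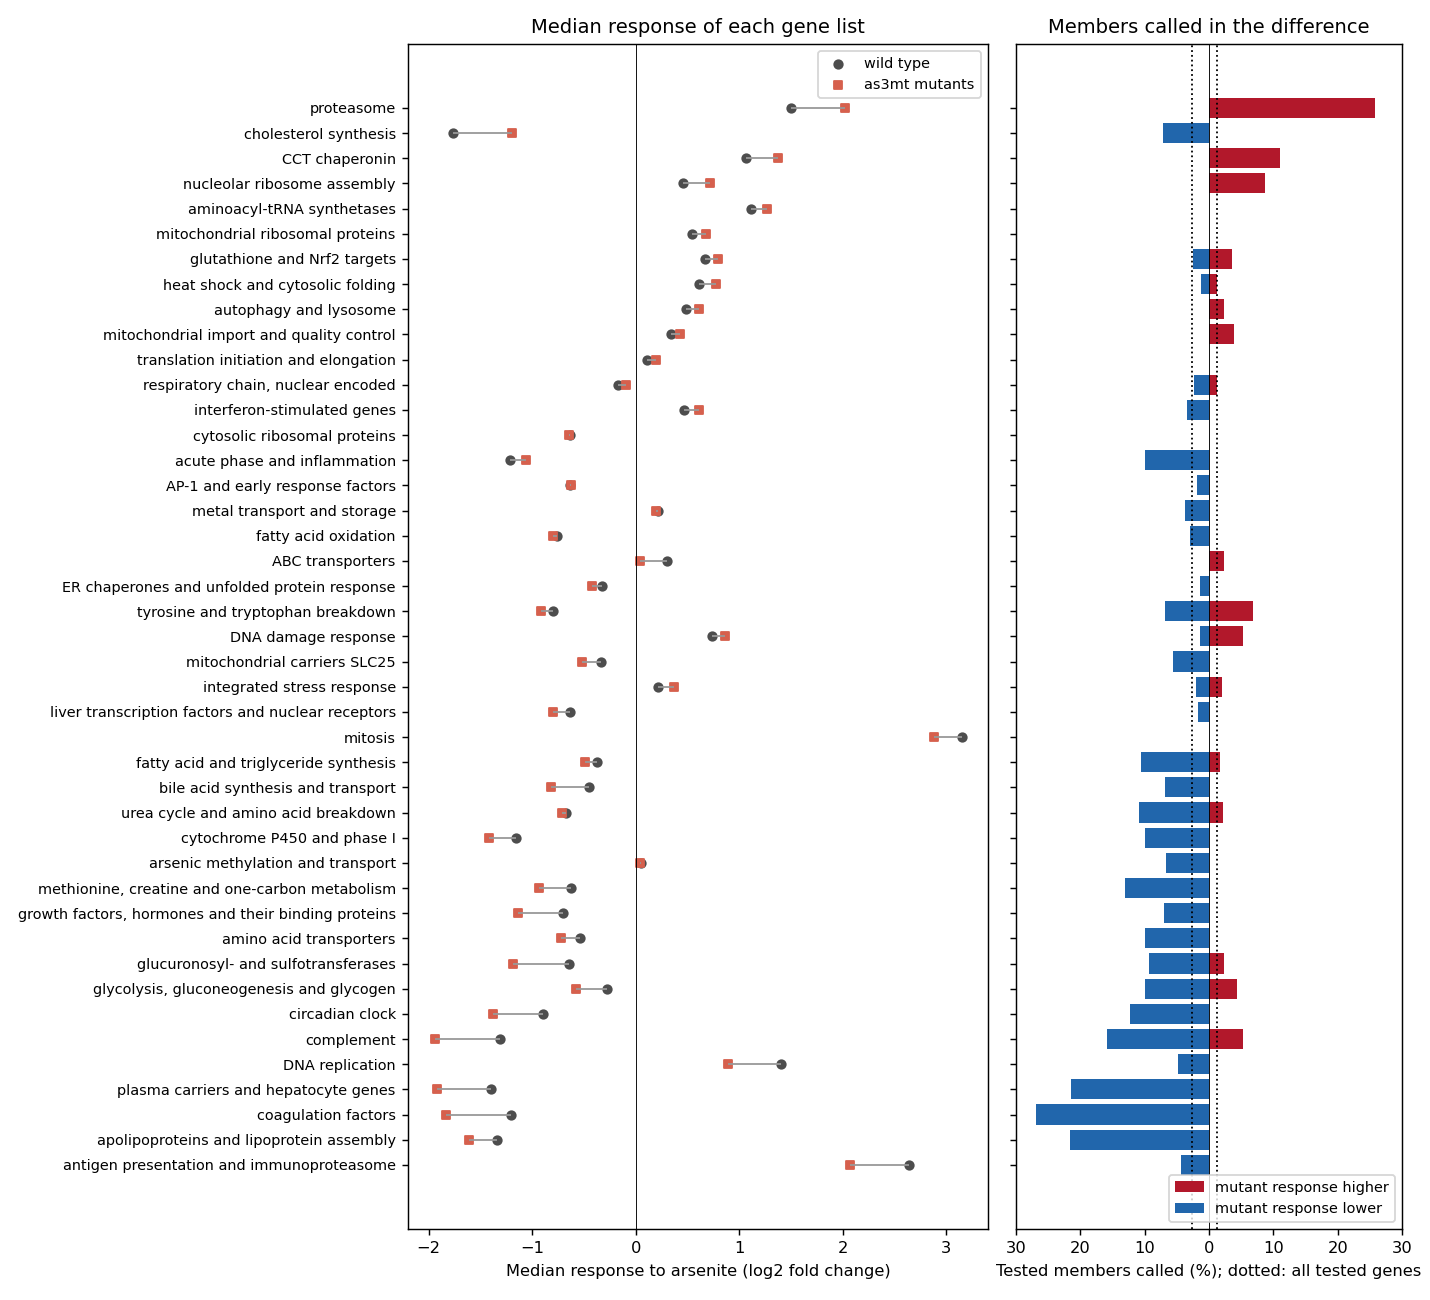
Left, median response to arsenite (log2 fold change) of each pathway or complex list in wild type (circles) and mutants (squares). Right, percentage of tested members called higher (to the right of 0) or lower (to the left), with dotted lines at 1.31 and 2.67% for all tested genes. The proteasome has the longest bar to the right (25.9%) and the coagulation factors the longest to the left (26.8%).

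Several lists of metabolic enzymes held more lower than higher calls, while most of their members were not called. Methionine, creatine and one-carbon metabolism had 8 lower calls among 61 tested members (13.1%, against 2.67% of all tested genes) and no higher one by edgeR (11 lower and 1 higher by DESeq2), with a median difference of -0.33. GAMT, the last enzyme of creatine synthesis, was 6500, 6660, 6760, 6230 and 8280 CPM in unexposed and 916, 1630, 1370, 1110 and 1620 in exposed wild type, against 5090, 4240, 6130, 5240 and 4900 in unexposed and 424, 344, 344, 305 and 345 in exposed mutants. Mutants were lower in each condition with no overlap, and the ratio between the genotypes, though not the gap in CPM, was wider with arsenite. The fall was 5.19-fold in wild type and 14.5-fold in mutants (difference -1.49 ± 0.20, edgeR adjusted p = 0.000445). Also called were AGXT (ENSDARG00000018478, a symbol shared by several identifiers), which detoxifies glyoxylate, at -1.35 ± 0.20 (edgeR adjusted p = 0.000693), and GLDC of the glycine cleavage system at -1.57 ± 0.27 (edgeR adjusted p = 0.00282). AGXT is counted in the list of plasma carriers and hepatocyte genes as well.

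SLC16A12 (ENSDARG00000017773), a membrane carrier known to transport creatine in mammals and a symbol with more than 1 identifier, was among the largest differences of genes averaging 10 CPM or more. It was 240, 404, 294, 389 and 287 CPM in unexposed and 64.6, 147, 101, 96.2 and 92.9 in exposed wild type. Mutants held 316, 302, 317, 326 and 299 CPM without arsenite and 17.4, 11.1, 4.57, 3.64 and 11 with it. The unexposed genotypes overlapped and the exposed ones did not, at a fall of 3.22-fold in wild type and 32.7-fold in mutants. The difference was -3.34 ± 0.43 (edgeR adjusted p = 0.000248). Amino acid transporters had 4 lower calls among 40 tested members (10.0%, against 2.67% of all tested genes), with SLC43A1 (ENSDARG00000037748), a carrier of branched-chain amino acids, at -2.76 ± 0.54 (edgeR adjusted p = 0.00616). The exposed levels of SLC43A1 were near 0, at 0.428 to 2.41 CPM in wild type and 0.0988 to 0.306 in mutants, so the size of its difference rests on few counts.

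Cytochromes P450 and other phase I enzymes of drug metabolism had 7 lower calls and no higher one by edgeR, DESeq2 (10 lower) or limma-voom (8 lower) among 71 tested members (9.9%, against 2.67%, median -0.31). The smallest adjusted p was that of cyp2aa12, at -1.82 ± 0.27 (edgeR adjusted p = 0.000664), and the carboxylesterase ces3 differed by -2.38 ± 0.43 (edgeR adjusted p = 0.00402). Glucuronosyl- and sulfotransferases had 4 lower calls (9.3%) and 1 higher among 43. The lower calls included PAPSS2 (ENSDARG00000071021, with a shared symbol), which makes the sulfate donor, at -1.15 ± 0.15 (edgeR adjusted p = 0.000236). The higher call was UGDH, which makes the glucuronate donor, at 0.79 ± 0.17 (edgeR adjusted p = 0.0102), with 113 to 159 CPM in exposed wild type and 350 to 433 in exposed mutants. Unexposed mutants were already higher in UGDH, at 125 to 157 CPM against 68.8 to 96.2 in unexposed wild type. Enzymes of triglyceride synthesis were called lower with LPIN2 (-1.06 ± 0.20, edgeR adjusted p = 0.00576) and DGAT2 (-1.12 ± 0.24, edgeR adjusted p = 0.0108), in a list with 6 lower calls (10.5%) and 1 higher among 57. Glycolysis, gluconeogenesis and glycogen had 7 lower (10.0%) and 3 higher calls (4.3%) among 70, and here g6pc1a.1, which releases glucose, was lower (-0.74 ± 0.13, edgeR adjusted p = 0.00282) and fbp1a, a fructose bisphosphatase, was higher (1.05 ± 0.21, edgeR adjusted p = 0.00643).

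The cholesterol list split. Its median difference was 0.44, with 27 of 42 estimates above 0, but none of these was called by edgeR or limma-voom (3 by DESeq2, and 9 at an unadjusted p under 0.05), and the 3 calls (7.1%) were lower and belong to genes that do not make sterols. HMGCS1, an enzyme early in sterol synthesis named after its values were seen, had a response of -3.21 in wild type and -2.52 in mutants, and its difference missed the threshold (edgeR adjusted p = 0.558). The calls were SOAT2, which stores cholesterol as esters, MYLIP (ENSDARG00000055118, with a shared symbol), which degrades lipoprotein receptors, and NR1H3, a nuclear receptor for oxysterols. SOAT2 was 23.4, 15.0, 1.86, 3.47 and 4.57 CPM in unexposed and 42.8, 11.3, 3.65, 5.54 and 13 in exposed wild type, against 16.6, 18.8, 15.3, 16.9 and 10.3 in unexposed and 0.656, 3.38, 0.554, 0.665 and 0.594 in exposed mutants. Wild-type libraries spread widely in each condition, and the exposed mutants lay below all other libraries, except that their replicate 2 was above replicate 3 of the unexposed wild type. The difference, -4.38 ± 0.99 (edgeR adjusted p = 0.0168), was the largest named here in either direction. The MYLIP call (-1.36 ± 0.33, edgeR adjusted p = 0.0229) was lost without replicate 3 of the exposed mutants (edgeR adjusted p = 0.0512), and that of NR1H3 (-0.67 ± 0.17, edgeR adjusted p = 0.0313) was kept in 11 of the 20 fits.

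The circadian list had 5 lower calls among 41 tested members (12.2%, against 2.67% of all tested genes) and no higher one by edgeR, DESeq2 (6 lower) or limma-voom (4 lower), with a median difference of -0.55. BHLHE41, a clock repressor, was 76.7, 56.6, 79.6, 62.3 and 110 CPM in unexposed and 26.4, 22.2, 28.8, 17.7 and 33.1 in exposed wild type, against 45.0, 43.6, 61.3, 47.2 and 58.0 in unexposed and 4.43, 5.91, 3.50, 4.81 and 2.99 in exposed mutants. The exposed genotypes did not overlap, and the difference was -1.97 ± 0.28 (edgeR adjusted p = 0.000614). Its relative BHLHE40 differed by -1.48 ± 0.29 (edgeR adjusted p = 0.00672). Growth factors, hormones and their binding proteins had 4 lower calls (7.0%) and no higher one by edgeR among 57 (5 lower and 1 higher by DESeq2), with the smallest adjusted p for the growth hormone receptor ghrb. This receptor was 33.3 to 63.0 CPM in exposed wild type and 4.18 to 17.1 in exposed mutants, and its wild-type response of -0.65 ± 0.28 was not called (edgeR adjusted p = 0.0531), whereas that of mutants was -2.69 ± 0.29. The difference was -2.04 ± 0.40 (edgeR adjusted p = 0.00587).

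Further genes with a greater fall in mutants were named for their size or adjusted p. adh8a, an alcohol dehydrogenase, fell by 3.59 in wild type and 6.69 in mutants on the log2 scale (difference -3.10 ± 0.60, edgeR adjusted p = 0.00585). It ended at 1.04 to 6.92 CPM in exposed wild type and 0.148 to 0.943 in exposed mutants. bco2l, named as a carotenoid oxygenase, fell by 2.26 and 4.99 (difference -2.73 ± 0.48, edgeR adjusted p = 0.00312). In exposed mutants bco2l was 0.158 to 1.36 CPM, and ifit16, given next, 0.459 to 2.83. ifit16, of a family induced by interferon, fell by 2.03 and 5.04 (difference -3.01 ± 0.42, edgeR adjusted p = 0.000521), and it was the 1 call by edgeR and by limma-voom among 30 tested members of the interferon list, where DESeq2 called 2 higher and 1 lower. ENOSF1, a mitochondrial enzyme, was 52.3 to 69.4 CPM in exposed wild type and 17.2 to 27.0 in exposed mutants (difference -1.56 ± 0.19, edgeR adjusted p = 0.000162). In human its gene overlaps TYMS on the other strand. Whether the zebrafish genes overlap was not tested. Use of strand in the counting was not given, so reads of any such neighbour could not be told apart.

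Genes of DNA replication mostly rose in wild type, and 3 were called with a lower response in mutants. Of 62 tested members 55 rose and none fell in wild type, where 28.7% of all tested genes rose and 24.6% fell. In mutants 35 members rose and 6 fell, against 31.5% and 30.3% of all tested genes. Median responses were 1.41 and 0.89, and the difference was below 0 in 57 members, with a median of -0.59 that stayed negative under the other scalings (-0.49 and -0.56). By edgeR 3 members were called (4.8%, against 2.67% of all tested genes, with 5 by DESeq2, 2 by limma-voom, and 22 at an unadjusted p under 0.05), all subunits of the MCM helicase that unwinds DNA at origins. MCM6 (ENSDARG00000057683, with a shared symbol) was 11.8, 13.5, 19.4, 19.3 and 13.9 CPM in unexposed and 33.9, 23.0, 19.6, 17.2 and 23.1 in exposed wild type, against 20.6, 18.9, 24.7, 21.4 and 16.4 in unexposed and 12.9, 17.4, 11.7, 14.7 and 13.5 in exposed mutants. The genotypes overlapped in each condition, as did the conditions in each genotype. By mean the exposed wild type was highest (23.3 CPM) and the exposed mutants lowest (14.1 CPM). The wild-type rise (0.58 ± 0.18) and the mutant fall (-0.54 ± 0.18) were both called, and the difference was -1.12 ± 0.25 (edgeR adjusted p = 0.0153).

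MCM3 behaved alike, with responses of 0.57 ± 0.20 and -0.58 ± 0.20 and a difference of -1.15 ± 0.28 (edgeR adjusted p = 0.0257). Its call was lost without replicate 3 of the unexposed mutants (edgeR adjusted p = 0.052), replicate 3 of the exposed mutants (0.055) or replicate 5 of the unexposed wild type (0.0517). MCM7 (-0.88 ± 0.24, edgeR adjusted p = 0.0421) was called in 5 of the 20 fits without 1 library, and over those fits 1 to 5 replication genes were called. The mitosis list had no call among 80 tested members by edgeR (1 by DESeq2, none by limma-voom, 6 at an unadjusted p under 0.05) and a median difference of -0.21. In this list 78 members rose in wild type and 75 in mutants (28.7% and 31.5% of all tested genes did), with median responses of 3.15 and 2.88. Its member with the smallest adjusted p was the transcription factor MYBL2 (-1.39 ± 0.43, edgeR adjusted p = 0.0704).

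Opposite responses that were both called occurred in 16 genes, mostly at low levels. The clearest was EXO5, a nuclease that trims single-stranded DNA. It fell in wild type, from 6.98, 5.43, 6.56, 7.55 and 6.25 CPM to 2.79, 1.96, 2.60, 2.28 and 4.27, and rose in mutants, from 2.93, 2.78, 3.52, 4.25 and 3.74 to 6.95, 5.50, 7.97, 5.73 and 7.90. The genotypes did not overlap in either condition, and their order was reversed by exposure. The responses were -1.24 ± 0.19 and 0.98 ± 0.19, and the difference was 2.22 ± 0.26 (edgeR adjusted p = 0.000162). cox4i1l, a relative of a cytochrome oxidase subunit, went up in wild type (1.67) and down in mutants (-1.603), at no more than 10.3 CPM in any library. It started higher in mutants, at 6.98 to 10.3 CPM against 0.403 to 1.83 in unexposed wild type. With arsenite the genotypes overlapped (0.63 to 7.16 CPM in wild type, 1.90 to 3.63 in mutants), as did the 2 conditions in wild type. A further pair of large differences also lay in genes that started higher in mutants, and these are not among the 16. dnah5l, a relative of ciliary dynein heavy chains, whose mutant fall was not called (edgeR adjusted p = 0.0671), was higher in unexposed mutants (18.2 to 37.3 CPM) than in unexposed wild type (2.38 to 13.5), and overlapped with arsenite (4.74 to 51.6 in wild type and 8.23 to 20.7 in mutants), a difference of -3.08 ± 0.68 (edgeR adjusted p = 0.0137). EML3, a microtubule-binding protein with responses of -0.30 in wild type and -3.06 in mutants, started higher in mutants (18.4 to 51.2 against 8.85 to 12.6 CPM) and ended at 1.83 to 6.03 against 3.81 to 15.3 CPM (difference -2.76 ± 0.48, edgeR adjusted p = 0.00302).

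Several lists gave no call or 1 by edgeR. Over all tested genes 3.98% were called, a share at which lists of this size hold few calls. Aminoacyl-tRNA synthetases (23 tested), translation factors (69) and mitochondrial ribosomal proteins (73) had none by edgeR. DESeq2 called 0, 5 and 4 of them and limma-voom 0, 1 and 0, and an unadjusted p under 0.05 was reached by 3, 12 and 17. Over all 16389 tested genes the counts were 1123 by DESeq2, 608 by limma-voom and 2992 at an unadjusted p under 0.05. These lists had median differences of 0.25, 0.10 and 0.23. The endoplasmic reticulum list had 1 lower call among 70 (1.4%, against 2.67% of all tested genes). This was SEC61A1 (ENSDARG00000005675, with a shared symbol), a channel for secreted proteins (-0.79 ± 0.20, edgeR adjusted p = 0.0322), kept in 12 of the 20 fits. The median of that list, -0.10, became 0.01 with total counts. The antigen presentation list, which holds the immunoproteasome, had 1 lower call among 23 (4.3%, against 2.67%). Its median responses were 2.64 in wild type and 2.07 in mutants. Its median difference of -0.76 was the lowest among the lists of pathways and complexes. Estimates were below 0 in 19 members, and 2 lower and 1 higher had an unadjusted p under 0.05.

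Markers of other cell types gave 0 to 2 calls per list by edgeR. Exocrine pancreas markers, which can enter a dissected liver, summed to 34.0 to 217 CPM in unexposed and 17.7 to 51.6 in exposed wild type, and in mutants to 105 to 1430 and 14.7 to 650, with no call among 16 tested members by edgeR, DESeq2 or limma-voom, and none at an unadjusted p under 0.05. Endothelial markers summed to 162 to 203 CPM in exposed wild type and 112 to 126 in exposed mutants, which do not overlap. Of 17 tested endothelial markers 2 were called lower (11.8%, against 2.67% of all tested genes), the scavenger receptor stab1 and the growth factor receptor kdrl. Estimates were below 0 in 16 of the 17, with a median of -0.40, and 7 had an unadjusted p under 0.05. Macrophage markers summed to 188 to 295 and 212 to 337 CPM in these groups, with 1 call by edgeR and by limma-voom (c1qa) and none by DESeq2. Muscle markers summed to 3.13 to 99.5 CPM in exposed wild type (median 4.35), against 1.96 to 10.5 in exposed mutants (median 4.01). They had no call by edgeR among 12 (1 by DESeq2, 7 at an unadjusted p under 0.05, all lower). Epidermis and cholangiocyte lists had 1 lower call each, and enterocyte, stellate, neutrophil and erythrocyte lists had none by edgeR (1, 0, 0 and 1 by DESeq2, and 4, 2, 1 and 2 at an unadjusted p under 0.05). As with endothelial markers, the exposed sums did not overlap for enterocyte markers (1310 to 1830 CPM in wild type, 870 to 1270 in mutants). The same held for epidermis markers (92.0 to 163 against 46.7 to 90.0 CPM). Without arsenite the epidermis sums did not overlap either (436 to 702 CPM in wild type, 373 to 431 in mutants), while the enterocyte and endothelial sums overlapped. Exposed sums of the cholangiocyte, stellate, neutrophil and erythrocyte lists overlapped.

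Genes near the mutated locus were counted. A RefSeq gene table places as3mt on chromosome 1 (assembly GRCz12tu, while the notes name GRCz10), and 70.9% of the tested genes could be placed by symbol. Chromosome 1 held 27 of the 488 placed calls (5.53%), against 4.38% of the placed tested genes. Within 5 Mb on either side of as3mt, 4 of 55 placed tested genes were called (7.3%). Among all placed tested genes 488 of 11622 were called, and among all tested genes 3.98%. The 4 were the carboxypeptidase CPB2, GPALPP1, the secreted phosphoprotein spp2 and the RNA-binding igf2bp2b. Only igf2bp2b kept its call in all 20 fits without 1 library, and CPB2, GPALPP1 and spp2 kept theirs in 12, 6 and 15. CPB2 is also a member of the coagulation list.

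The scale matters for genes whose starting levels differed. A difference of responses on the log2 scale compares ratios, and the same comparison on the CPM scale subtracts levels. For 65 of the 652 genes (10.0%) the sign on the CPM scale was opposite, and 64 of these were greater falls. Among the genes named above, GAMT, AGXT, gpx4a, bco2l and BHLHE41 belong to them: each had a lower mean in unexposed mutants than in unexposed wild type, and lost less CPM in mutants while falling by a larger factor. For GAMT the means fell from 6890 to 1330 CPM in wild type and from 5120 to 352 in mutants. AS3MT itself fell from 125 to 45.9 CPM in wild type and from 72.7 to 13.1 in mutants.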

How the data were processed

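The authors deposited 1 table of raw counts for each of 20 libraries, with Ensembl gene identifiers. Per the labels, poly(A) RNA was prepared from 100 ng of RNA with an integrity number above 7. The submitters' processing notes name FastQC 0.11.5, Trimmomatic 0.36 and the build GRCz10. An aligner, a counter and an annotation are not given in the sources used here. More than 1 library kit is named, so use of strand is unknown. Totals were 28288786 to 39645961 counts in unexposed and 25406597 to 42047561 in exposed wild type, and 27505029 to 41248978 and 32805944 to 40961344 in mutants.

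Symbols, given for 26269 identifiers (81.8%), follow a gene name table, and 4144 identifiers share theirs with another, so reads of near-identical copies may be split. A model of 4 group means was fitted in R 4.3.3 with edgeR 4.0.16 (filterByExpr, TMM factors, quasi-likelihood F test, 2-sided, no block), and the common coefficient of variation between libraries was 0.282. A gene was called at a Benjamini-Hochberg adjusted p under 0.05 over all 16389 tested genes. CPM used TMM-scaled library sizes. Principal components used log2 CPM with a prior count of 2.

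Genes were named by rule: as3mt, the 10 largest differences each way among genes called in every fit without 1 library and with a mean of at least 10 CPM and a proper symbol, the 6 smallest adjusted p, and up to 3 called members of each of 54 lists (43 of pathways and complexes, 11 of cell type markers). Some that meet the rule are not described, and 1 is not reported here. Other members named, opposite responses beyond EXO5 and genes near as3mt were picked after their values were seen. The members and lists were chosen with earlier results of these data known. Counts of list members are no set test and are read against 1.31% of all tested genes called higher and 2.67% called lower. The fit was checked on simulated counts. Alternatives used DESeq2 1.42.0 (Wald test, size factors), limma 3.58.1 (voom), total counts, other filters, robust dispersions, replicate blocks, an exocrine pancreas covariate and each library left out.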

Additional observations from a re-analysis of the deposited data

Results flagged for a closer look

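The difference between the arsenite responses of the genotypes passed its own test in 652 genes, and the 22 genes named for the size of the difference or for their adjusted p are among them. Of those with a higher response in mutants, the log2 difference was 2.22 for EXO5, 1.93 for RNF14 (ENSDARG00000078683), 1.84 for nupr1a, 1.77 for mdm2, 1.39 for mat2al, 1.38 for PLA2G12A, 1.33 for CIAPIN1, 1.32 for VPS37A, 1.28 for PARP3 and 1.25 for GTPBP1 (ENSDARG00000042900). Of those with a lower response it was -4.38 for SOAT2, -3.34 for SLC16A12 (ENSDARG00000017773), -3.34 for apobb.2, -3.10 for adh8a, -3.08 for dnah5l and -3.01 for ifit16. It was -2.76 for SLC43A1 (ENSDARG00000037748), -2.76 for EML3, -2.76 for ahsg1, -2.73 for bco2l, -1.69 for CBR1 and -1.56 for ENOSF1.

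In the groups of 5 libraries of these genes and as3mt, 5 of 92 groups held a library far from the other 4 by Dixon's criterion (a gap over 0.71 of the range), and chance alone gives about 1 in 20. Replicate 1 of the exposed wild type was high for SOAT2 (42.8 CPM) and low for CBR1 (15.9 CPM). Replicate 2 of the exposed mutants was high for SOAT2 (3.38 CPM). Replicate 2 of the unexposed wild type was high for dnah5l (13.5 CPM), and its replicate 4 was low for bco2l (25.7 CPM).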

How the results depend on the processing

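Leaving out 1 library at a time gave 383 to 793 called genes, 118 to 268 of them higher and 265 to 531 lower, with 87 to 196 greater rises, 239 to 484 greater falls, 6 to 26 smaller changes and 51 to 143 opposite ones. The DESeq2 Wald test called 1123 genes, 500 higher, with 394 greater rises, 37 smaller changes and 161 opposite ones, and shared 635 genes with the 652. Total counts called 432 genes higher and 370 lower, with 405 greater rises and 286 greater falls, so rises were the more frequent form there. Without a filter 131 were higher, with 95 greater rises and 8 smaller changes among 26683 genes tested. The filter at a mean of 10 CPM, with 6409 genes tested, left 52 opposite changes, and limma-voom gave 9 smaller ones. Counting only genes with both responses called left 137 greater rises, 328 greater falls, 4 smaller and 16 opposite changes, since it keeps fewer genes. The causes of the other shifts were not tested. The pancreas covariate gave 549 calls.

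The replicate number as a block gave 896 calls over all libraries and 901 within genotype, with 583 greater falls in the latter. Same-numbered libraries of different groups correlated at -0.08 to 0.398 in their deviations from group means. Of these pairs 15 of 30 were over 0.1 (7 of 10 within a genotype), against 11 of 120 pairs with other numbers. What the number marks is not given, so same-numbered libraries were not treated as pairs. The main test thus leaves out any effect that they share. In each genotype 4 of 5 unexposed libraries correlated best with the exposed one of their number.

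On the CPM scale these differences turned positive: bco2l 5.28, gpx4a 460, cox7a1 1.73, slc27a2a 34.7, DGAT1 (ENSDARG00000103503) 2.47, sult3st2 2.46, GAMT 791, AGXT (ENSDARG00000018478) 2030, TDO2 190, OAT 82.0, crp3 256, fetub 894, BHLHE41 4.77, UCP1 847 and krt92 25.2. Of 3521 values for 118 genes named by rule under other fits, 3180 kept direction and call, 301 lost the call, 40 gained it and none changed sign. The 22 genes given for their size or adjusted p kept theirs in all 659 values, as the rule for naming 19 of them required in part.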
